A study of Mus musculus with 11 samples.

Results

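The genes described here make up the core of hepatic gluconeogenesis and its transcriptional drive in the livers of ovariectomized mice treated with follicle-stimulating hormone (FSH) or saline. They are 10 genes taken by name from a table of 36788 genes: the enzymes Pck1, Pck2, Pcx, Fbp1 and G6pc, the transporter Slc37a4, the coactivators Ppargc1a and Ppargc1b, and the transcription factors Hnf4a and Foxa2. All 10 had a row in the table, and all 10 passed the filter on low values that left 12733 genes for testing. All animals were labelled as wild-type C57BL/6 females, more than 12 weeks old, and had been ovariectomized (OVX) and fed a high-fat diet. The study's methods instead describe its mice as of a mixed background that includes C57BL/6J. The groups differed in what was injected, FSH in 5 mice (labelled FSH, replicates 1, 2, 3, 4 and 6) and saline in 6 (labelled OVX in the data, replicates 1 to 6). The comparison asks how FSH, given without the ovary present, alters the fatty liver of this diet model. Each replicate is the RNA of 1 whole liver after papain digestion, so hepatocytes and the other cells of the organ were read together. No sham-operated or chow-fed animals are among the samples analysed here, and whether the mice had fed or fasted before the livers were taken is not given in the sources used here.

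Gluconeogenesis is the pathway by which the liver makes glucose from lactate, alanine, glutamine and glycerol, and it keeps blood glucose up between meals. Most of its steps are glycolysis run backwards, and a few one-way steps of glycolysis are bypassed by dedicated enzymes. Pyruvate carboxylase (Pcx) and the phosphoenolpyruvate carboxykinases (Pck1 in the cytosol, Pck2 in mitochondria) carry pyruvate to phosphoenolpyruvate, fructose-1,6-bisphosphatase (Fbp1) removes a phosphate further up, and glucose-6-phosphatase (G6pc) together with the carrier Slc37a4, which brings glucose-6-phosphate into the endoplasmic reticulum, releases free glucose. Glucagon, through cAMP, and glucocorticoids raise Pck1 and G6pc transcription and insulin lowers it. PGC-1alpha (Ppargc1a) is the fasting-induced coactivator that works with HNF4alpha (Hnf4a) on these genes, PGC-1beta (Ppargc1b) is its relative, and Foxa2 is a forkhead factor that opens liver chromatin.

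The libraries held 11410596 to 19909327 reads in the FSH group and 10801891 to 16077442 in the saline group. Values are given as CPM, the reads of a gene per 1000000 reads of its library. The defining hepatocyte gene, albumin, was at 56399 to 87648 CPM. Of 10 kidney markers, another gluconeogenic organ, 6 were at 0 in all libraries and the 10 together never passed 1.11 CPM. Of 8 intestine markers, Cdx1, Cdx2, Sis and Lct were at 0 throughout, while Fabp2 and Lgals4 were read in every liver and missed the threshold (adjusted p = 0.127 and 0.930). Of 7 Kupffer cell markers 1 passed the test (Cd68, log2 fold change -0.78, adjusted p = 0.0118), a share of 14.3% where 10.6% of all genes were called, with 4 lower at an unadjusted p under 0.05, 1 called lower in edgeR and 2 in DESeq2. All 7 had a lower mean with FSH, and the summed list ran from 84.4 to 226.5 CPM with FSH and from 138.4 to 271.1 CPM with saline. Whether this bears on any gene below was not tested. In whole liver RNA, fewer cells of a type and less RNA per cell cannot be told apart.

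The upstream sequence of 3 of the genes is shown because the results below turn on them: Pck1 and G6pc, the hormone-responsive ends of the pathway, and Fbp1, the enzyme whose groups separated. Each is read on the strand of the gene, 5′ to 3′, from the 250 bases before the RefSeq start in GRCm38.p6. Bases that the GENCODE annotation already counts as part of the gene were left out, 25 for Pck1 and 155 for G6pc. Capitals mark motifs found by a search on both strands.
Pck1 (chr2:173152823-173153047, plus strand): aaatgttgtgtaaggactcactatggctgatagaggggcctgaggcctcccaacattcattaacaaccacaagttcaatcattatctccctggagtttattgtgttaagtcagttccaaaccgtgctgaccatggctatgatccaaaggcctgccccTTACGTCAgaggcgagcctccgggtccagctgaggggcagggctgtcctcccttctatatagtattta
G6pc (chr11:101367466-101367560, plus strand): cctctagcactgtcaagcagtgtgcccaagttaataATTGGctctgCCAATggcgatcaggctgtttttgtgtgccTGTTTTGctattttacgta
Fbp1 (chr13:62888283-62888532, minus strand): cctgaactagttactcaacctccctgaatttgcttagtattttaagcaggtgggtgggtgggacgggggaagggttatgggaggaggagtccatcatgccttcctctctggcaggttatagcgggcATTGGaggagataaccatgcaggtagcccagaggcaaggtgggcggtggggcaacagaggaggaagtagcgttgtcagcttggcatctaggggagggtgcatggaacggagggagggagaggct
The capitals in Pck1 are TTACGTCA, the form of the cAMP response element known from this gene, at 93 to 86 bases before the RefSeq start. Of 32851 mouse promoter windows of 250 bases, 0.447% held it. In G6pc they are the insulin response core TGTTTTG, at 174 to 168 bases before the start and in 5.56% of windows, and CCAAT on each strand. In Fbp1 a CCAAT on the strand opposite to the gene, printed as ATTGG, stood at 124 to 120 bases, and 33.8% of windows held that motif. The palindromic cAMP element TGACGTCA (1.55% of windows), the forkhead core TGTTTAC (3.17%) and the HNF4 site CAAAGTCCA (0.384%) were searched as well, and these letters were not in the 3 windows. The TATA box TATAAA (12.4% of windows) was searched too, and it stood in G6pc at 29 to 24 bases before the start, in the part not printed. A match is a description of the sequence and not of a bound factor.

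Across the 10 genes, 2 differed between the groups at an adjusted p under 0.05 in the limma fit over all tested genes, against a background of 10.6% (1350 of 12733 genes). Fbp1 was the 1 gene that rose, where 6.19% of all genes did so, and Hnf4a was the 1 gene that fell, where 4.41% did so. The study asked for more than significance and also set a minimum size, a log2 fold change beyond 1 in either direction. By both criteria 0 of the 10 were called in limma, edgeR, DESeq2 or voom, against 1.83% of all genes in limma. Fbp1 was also the 1 gene whose groups did not overlap, against 6.67% of all genes. Before adjustment, 3 of 10 had a p under 0.05, against 25.1% of all genes. The median log2 fold change of the 10 was -0.15, with 6 lower and 4 higher, and that of all tested genes was 0.02.

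**Figure D1:**
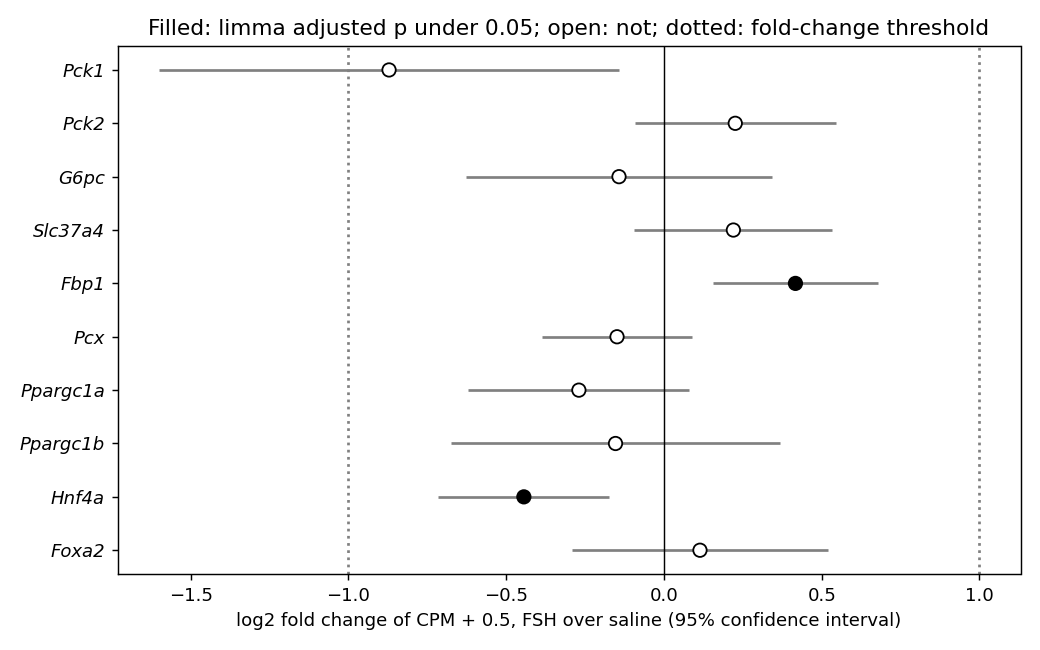
The log2 fold change of CPM + 0.5, FSH over saline, is on the horizontal axis for each of the 10 genes, with its 95% confidence interval from limma as a line. Filled points mark Fbp1 (0.42) and Hnf4a (-0.44), dotted lines mark a log2 fold change of 1 in either direction, and the interval of Pck1 (-1.60 to -0.14) is the widest of the 10.

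Pck1 (chr2:173153048-173159273, plus strand, in GRCm38), which commits oxaloacetate to glucose, had the largest difference in size of the 10 and also the largest standard error. Its level in the FSH livers was 687 CPM in replicate 1, 1586 in replicate 2, 1545 in replicate 3, 2098 in replicate 4 and 2900 in replicate 6. The saline livers ran from 1434 to 5077 CPM with a median of 3026. All 5 FSH livers lay below the saline median, yet the groups overlapped, since saline replicate 6 was below 4 of the 5 FSH livers. The means were 1763 ± 813 CPM (SD, n = 5) and 3155 ± 1310 CPM (SD, n = 6), a log2 fold change of -0.87 ± 0.34 (SE), or 0.547 of the saline level. This missed the threshold in limma (adjusted p = 0.123) and in the exact permutation test of this gene alone (two-sided p = 0.0801, where 0.00216 is the smallest value that 5 against 6 allows). Within saline the highest liver held 3.54 times the lowest and within FSH 4.22 times. Pck1 passed under 0 of 13 other settings and in 1 of 11 fits that left out 1 liver. That 1 was the fit without saline replicate 6 (log2 fold change -1.08, adjusted p = 0.0475). Without FSH replicate 1, the lowest of all 11, the log2 fold change was -0.57 (adjusted p = 0.302).

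The mitochondrial carboxykinase Pck2 (chr14:55540266-55551242, plus strand) was a minor transcript and stood the other way round. It measured 6.58, 6.42, 6.23, 7.82 and 5.96 CPM in FSH replicates 1, 2, 3, 4 and 6, and 4.17 to 7.47 CPM (median 5.52) in saline. All 5 FSH livers were above the saline median, and 3 saline livers were below every FSH liver. The log2 fold change of 0.23 ± 0.15 did not pass (adjusted p = 0.385), and the fewest reads behind a value were 45. Pcx (chr19:4510472-4621752, plus strand), which feeds both carboxykinases with oxaloacetate, measured 452, 533, 401, 467 and 492.5 CPM with FSH and 405 to 609 CPM (median 543) with saline. All 5 FSH livers were below the saline median within overlapping ranges, and its log2 fold change of -0.15 ± 0.11 had an adjusted p of 0.454. The 95% interval for this gene alone was -0.39 to 0.09, and leaving out 1 liver at a time moved the estimate between -0.22 and -0.09.

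Fbp1 (chr13:62864753-62888282, minus strand), the bisphosphatase whose promoter is printed above, was higher in every FSH liver than in any saline liver. It measured 1260 CPM in FSH replicate 1, 1419 in replicate 2, 1524 in replicate 3, 1412 in replicate 4 and 1320 in replicate 6. The saline values were 1225, 1223, 1187, 941, 765 and 970 CPM in replicates 1 to 6. The gap between the nearest livers, 1225 and 1260 CPM, was small beside the range within saline, whose replicates 1 to 3 sat together at the top. The means of 1387 ± 101 CPM (SD, n = 5) and 1052 ± 189 CPM (SD, n = 6) gave a log2 fold change of 0.42 ± 0.12, or 1.33 times the saline level, with a limma adjusted p of 0.0416 and an exact permutation p of 0.0108. The call lay close to the threshold: it was kept under 7 of 13 other settings and when 4 of the 11 livers were left out in turn, with adjusted p between 0.0198 and 0.104 and the direction kept in all of them.

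The last step of the pathway showed no difference that the test could tell from liver to liver spread. G6pc (chr11:101367561-101377903, plus strand), the phosphatase that frees glucose, measured 263, 524, 528, 714 and 473 CPM in FSH replicates 1, 2, 3, 4 and 6. Saline livers ran from 393 to 840 CPM with a median of 481. The ranges lay over each other, 3 of 5 FSH livers were above the saline median, and FSH replicate 1 was the lowest of all. The log2 fold change was -0.14 ± 0.23 (adjusted p = 0.755), its interval was -0.63 to 0.34, and without FSH replicate 1 it was 0.07. Its partner Slc37a4 (chr9:44396852-44402968, plus strand) measured 193, 179, 231, 223 and 209 CPM with FSH, and 116 to 220 CPM (median 193) with saline. Of the FSH livers 2 were above every saline liver and 3 saline livers were below every FSH liver, and the log2 fold change of 0.22 ± 0.15 did not pass (adjusted p = 0.390).

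**Figure D2:**
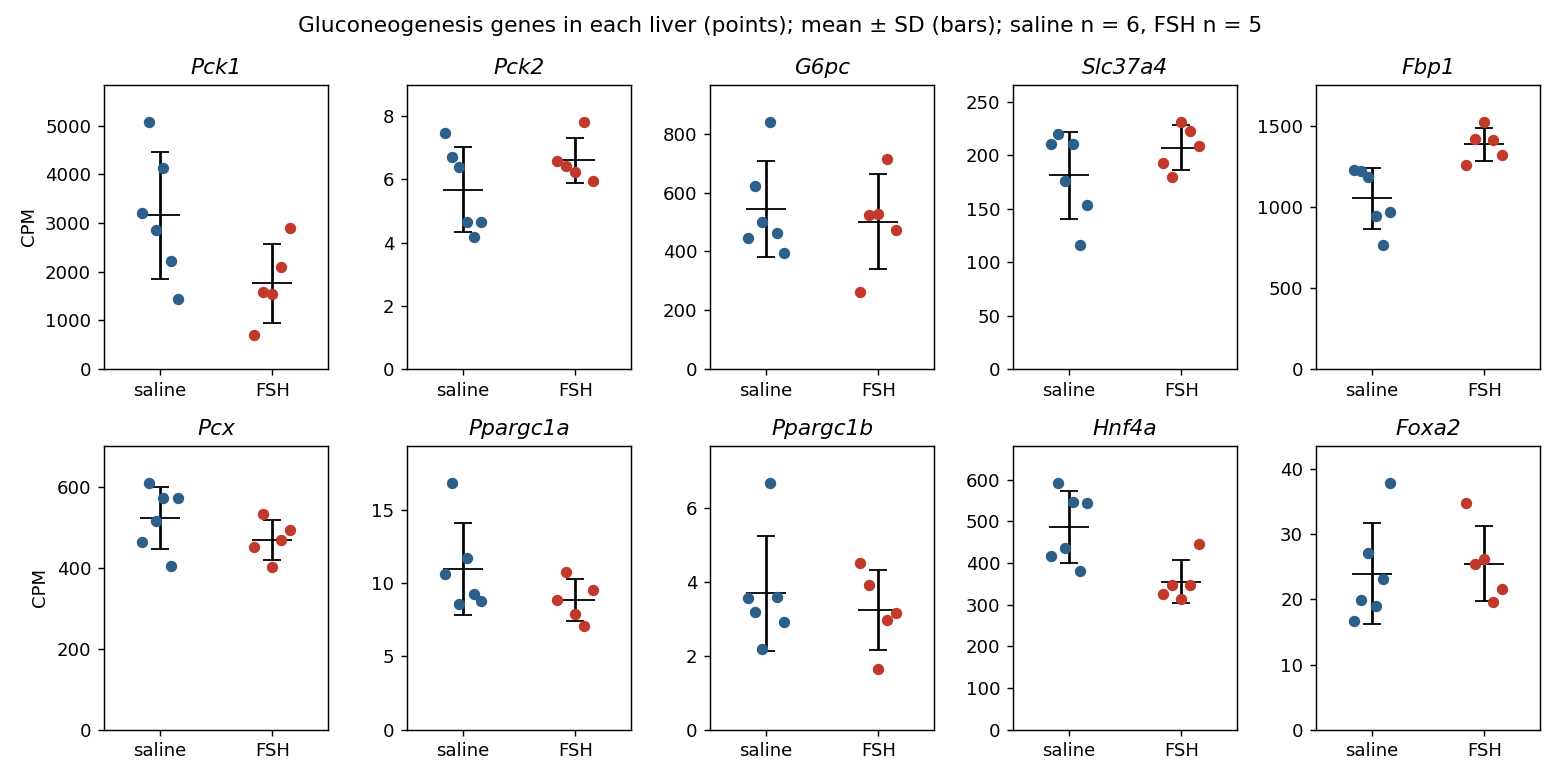
Each panel plots the CPM of 1 gene on a linear axis from 0, with a point per liver (saline n = 6, FSH n = 5) and bars for the mean ± SD. The 5 FSH points of Fbp1 lie above all 6 saline points, 4 of the 5 FSH points of Hnf4a lie below them, and in the other 8 panels the ranges lie over each other more broadly.

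Of the transcription factors, Hnf4a (chr2:163506808-163572910, plus strand), the nuclear receptor that holds much of the hepatocyte program, was lower with FSH. It measured 326 CPM in FSH replicate 1, 346 in replicate 2, 313 in replicate 3, 347 in replicate 4 and 445 in replicate 6, and 382 to 593 CPM with a median of 490 in saline. All FSH livers but replicate 6 were below every saline liver, and replicate 6 stood within the saline range. The means of 355 ± 52.3 CPM (SD, n = 5) and 486 ± 85.6 CPM (SD, n = 6) gave a log2 fold change of -0.44 ± 0.13, or 0.735 of the saline level, with a limma adjusted p of 0.0369 and an exact permutation p of 0.0195. Among 13 other settings 11 kept the call, and leaving out 1 liver at a time kept it in 4 of 11, with adjusted p between 0.00861 and 0.1001 over all of them and the direction kept throughout. The gene's span holds the antisense gene Hnf4aos (2.80 CPM on average) without shared exons in the basic annotation, and the sources used here do not say whether strand was used in counting. Foxa2 (chr2:148042877-148046969, minus strand) measured 34.8, 25.5, 26.2, 19.6 and 21.6 CPM with FSH and 16.7 to 37.9 CPM (median 21.5) with saline. Its ranges overlapped almost fully, with a log2 fold change of 0.11 ± 0.19 (adjusted p = 0.767).

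The PGC-1 coactivators were low in all 11 livers, and neither passed the test. Ppargc1a (chr5:51454250-51567726, minus strand) measured 8.89, 10.8, 7.93, 7.10 and 9.55 CPM with FSH, and saline ran from 8.57 to 16.9 CPM with a median of 9.94. Of the FSH livers 2 were below every saline liver and 1 was above the saline median, and the log2 fold change was -0.27 ± 0.16 (adjusted p = 0.337, interval -0.62 to 0.08). Ppargc1b (chr18:61298136-61400431, minus strand) measured 4.52, 3.91, 1.64, 2.97 and 3.15 CPM with FSH and 2.19 to 6.70 CPM (median 3.39) with saline. Saline replicate 4, at 6.70 CPM, stood well above the other saline livers, and the fewest reads behind a value were 25. The log2 fold change of -0.15 ± 0.24 (adjusted p = 0.755) became 0.02 without that liver and 0.03 without FSH replicate 3.

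Divided by the length of the annotated exons, so that genes can be set side by side, the levels of the 10 genes spread widely. In saline livers Pck1 led with a mean of 1186 CPM per kb, before Fbp1 at 711, G6pc at 225, Pcx at 123, Hnf4a at 111 and Slc37a4 at 68.6 CPM per kb. Foxa2 followed at 11.003, and Ppargc1a at 1.70, Pck2 at 1.23 and Ppargc1b at 0.990 CPM per kb closed the order. The ranges of neighbours overlapped between Pck1 and Fbp1, between Pcx and Hnf4a, and among the last 3 genes. In FSH livers Fbp1 came first at 938 CPM per kb and Pck1 second at 663. Liver by liver, Pck1 lay above Fbp1 in 5 of 6 saline livers and in 1 of 5 FSH livers. Of related isozymes not counted among the 10, the glucose-6-phosphatase G6pc3 stood at 3.18 CPM per kb with FSH and 2.79 with saline, muscle-type Fbp2 at 0.188 and 0.102, and islet-type G6pc2 was listed at 0 in all livers.

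Ratios within a liver set Pck1, Fbp1 and Pcx against enzymes that run the other way or compete with them, Pck1 against Pck2 and the coactivators against each other. All are log2 ratios of CPM + 0.5, in which the scaling between libraries cancels nearly but not fully for low genes, tested with the exact permutation test and adjusted over 6 ratios, of which 5 are given. Cytosolic over mitochondrial carboxykinase (Pck1/Pck2) was 7.82 ± 0.79 with FSH and 8.91 ± 0.57 with saline, a difference of -1.10 (exact p = 0.0195, adjusted p = 0.0390). Pck1 over pyruvate kinase Pklr, the glycolytic enzyme that runs the opposite way, was 1.84 ± 0.98 against 3.45 ± 0.86, a difference of -1.61 (exact p = 0.0130, adjusted p = 0.0390). Both ratios were lower with FSH while their ranges still overlapped, and both share Pck1, so they are not separate evidence. Fbp1 over the liver phosphofructokinase Pfkl was 4.80 ± 0.24 against 4.21 ± 0.30, a difference of 0.58 (exact p = 0.0108, adjusted p = 0.0390). Fbp1 alone had the same exact p, so this ratio is not separate evidence from the call on that gene. Pcx over Pdha1, the pyruvate dehydrogenase subunit that competes for pyruvate, was 1.76 ± 0.20 against 2.10 ± 0.23, a difference of -0.34 (exact p = 0.0260, adjusted p = 0.0390). Leaving out 1 liver at a time, Pck1/Pck2 passed in 3 of 11 cases, Pck1/Pklr in 7, Fbp1/Pfkl in 7 and Pcx/Pdha1 in 2, with the direction kept in all of them. Ppargc1a over Ppargc1b differed by -0.12 (adjusted p = 0.812). Among the partners, Pklr measured 452 ± 88.9 CPM with FSH and 283 ± 96.4 CPM with saline (log2 fold change 0.74, adjusted p = 0.0536), and the log2 fold changes of Pfkl (-0.17) and Pdha1 (0.19) had adjusted p of 0.354 and 0.185.

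**Figure D3:**
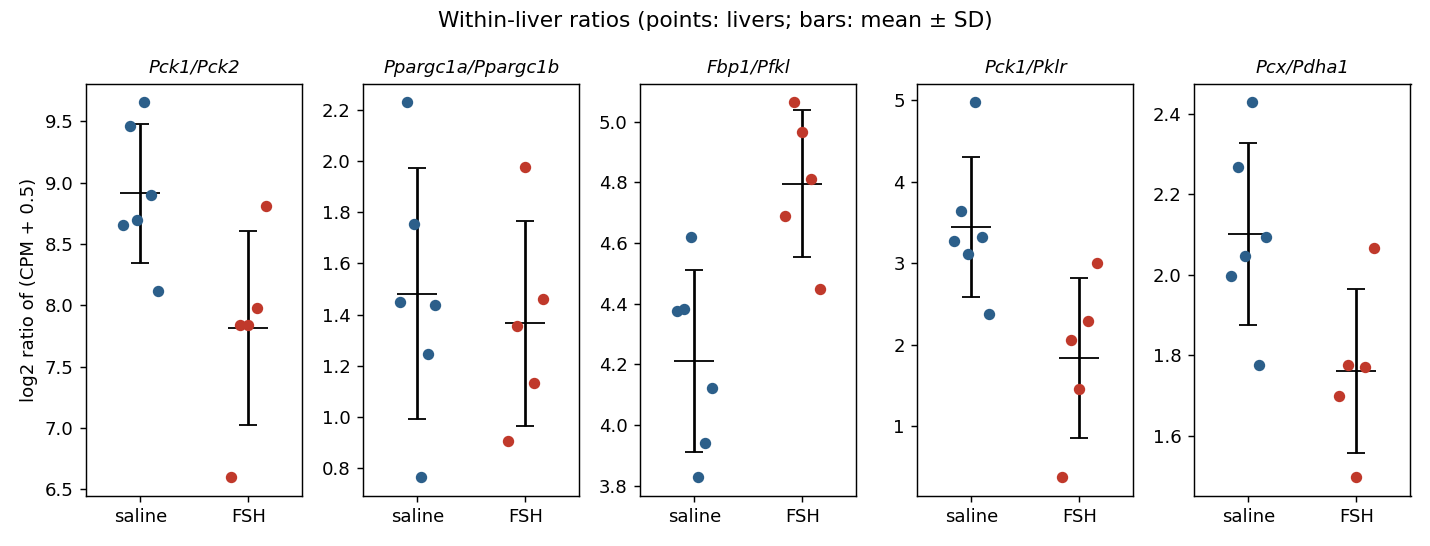
Each panel plots 1 within-liver ratio as the log2 ratio of CPM + 0.5, on axes that do not start at 0, with a point per liver and bars for the mean ± SD. Pck1/Pck2, Pck1/Pklr and Pcx/Pdha1 are lower with FSH and Fbp1/Pfkl is higher, the groups of Ppargc1a/Ppargc1b lie over each other, and in no panel are the groups fully apart.

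Correlations between livers describe which genes varied together within the groups. Pearson correlations of the deviations of log2(CPM + 0.5) from the group means, over 11 livers that each share 1 library for all genes, are given as descriptions. Of 45 pairs, 5 were above 0.6: Pck2 with Fbp1 (0.84), Pcx with Hnf4a (0.83), Pck1 with G6pc (0.77), Slc37a4 with Fbp1 (0.75) and Pck2 with Slc37a4 (0.63). Below -0.6 were Foxa2 with Pck1 (-0.83) and Foxa2 with G6pc (-0.66). How many pairs among all tested genes lie past 0.6 was not counted, so these counts have no background beside them. By rank (Spearman's rho on the same deviations), Pck2 with Fbp1 (0.83), Pcx with Hnf4a (0.83), Pck1 with G6pc (0.69) and Foxa2 with Pck1 (-0.75) stayed past 0.6 in size. Slc37a4 with Fbp1 (0.51), Pck2 with Slc37a4 (0.48) and Foxa2 with G6pc (-0.52) did not, while Pck1 with Slc37a4 (0.68), Pck1 with Hnf4a (0.62) and G6pc with Slc37a4 (0.62) were past 0.6 by rank alone. Over all livers without removing the group means, Pck1 with G6pc had a Pearson r of 0.73 and a rank correlation of 0.48. For Pck2 with Fbp1 these were 0.84 and 0.54. FSH replicate 1 had the lowest Pck1 and G6pc of all livers, and saline replicate 6 had the highest Foxa2 and the second lowest Pck1 and G6pc. Saline replicate 2 had the highest Pck1, Pcx, Ppargc1a and Hnf4a, and saline replicate 5 the lowest Pck2, Slc37a4 and Fbp1.

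**Figure D4:**
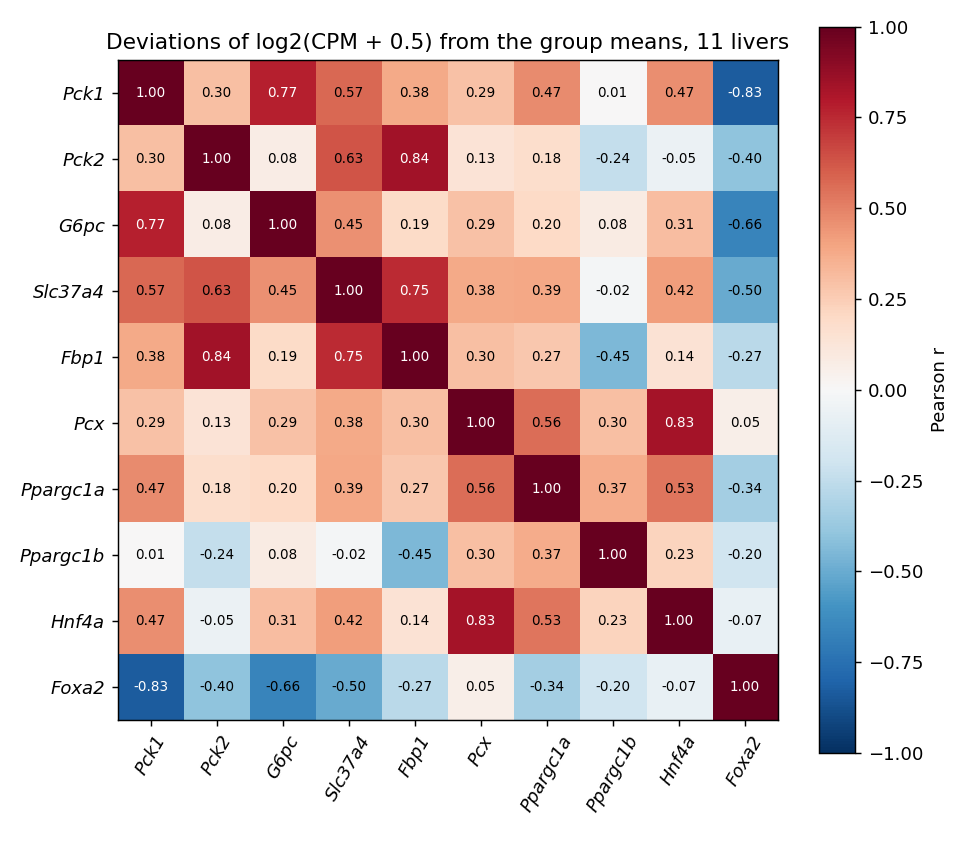
The grid gives Pearson r between each pair of the 10 genes, computed on deviations of log2(CPM + 0.5) from the group means over 11 livers, with red for positive and blue for negative values. Foxa2 is blue against Pck1 (-0.83) and G6pc (-0.66), and Pck2, Slc37a4 and Fbp1 are red with each other (0.63 to 0.84).

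The genes whose levels tracked Pck1 most closely over the 11 livers were Per1, a period gene of the circadian clock (r = 0.97), Rgl3 (0.94) and Angptl4, a lipoprotein lipase inhibitor (0.94). On deviations from the group means they were Per1 (0.98), Klf4 (0.96) and Mib2 (0.95). Of these, Angptl4 fell with FSH (log2 fold change -0.99, adjusted p = 0.0162), and the difference in Per1 was -0.61 on the same scale (adjusted p = 0.276). For G6pc the nearest were Plk3 (0.89), Klf4 (0.86) and Zpr1 (0.85), and on deviations Serpina3k (0.91), Plk3 (0.91) and Klf4 (0.88). Klf4 was thus near both genes, with a log2 fold change of 0.00 between the groups (adjusted p = 0.996). For Ppargc1a they were Arhgef3 (0.95), Setdb2 (0.92) and Susd6 (0.92), the same 3 on deviations. For Ppargc1b they were Cnppd1 (0.87), Pot1b (0.86) and Aasdh (0.83), and on deviations Wdr45 (0.93), Mms19 (0.90) and Rnf167 (0.90). These are the highest of 12733 correlations over few livers.

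Genes of substrate entry and of the mitochondrial carriers and shuttles moved in both directions. Of 26 tested genes for precursor entry and mitochondrial shuttles, 4 rose and 4 fell (30.8%, where 6.19% of all genes rose and 4.41% fell), with a median log2 fold change of 0.12 beside 0.02 for all genes. Gpd1, the glycerol-3-phosphate dehydrogenase that links glycerol to the triose phosphates, fell from 339 ± 46.0 CPM with saline to 155 ± 30.1 CPM with FSH (log2 fold change -1.14, adjusted p = 6.06e-05), and its groups did not overlap. The monocarboxylate transporter Slc16a1 (-0.83, adjusted p = 0.000944) and lactate dehydrogenase Ldha (-0.45, adjusted p = 0.00260), which bring in lactate, fell as well, again without overlap. The citrate carrier Slc25a1 (0.70, adjusted p = 0.000545), the oxoglutarate carrier Slc25a11 (0.44, adjusted p = 0.0143) and proline dehydrogenase Prodh (0.72, adjusted p = 0.0104) rose. The other 2 calls were Gpt2, an alanine aminotransferase, which fell (-0.48, adjusted p = 0.0298), and Gpd2, the mitochondrial glycerol-3-phosphate dehydrogenase, which rose (0.59, adjusted p = 0.0319). These last were named after their values were seen. Gpd1 and Gpd2, which together make up the glycerol phosphate shuttle, went opposite ways.

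The shared, reversible steps held 9 tested genes with log2 fold changes up to 0.57 (median 0.11), of which 2 rose (22.2%, with 6.19% of all genes): triose phosphate isomerase Tpi1 (0.27, adjusted p = 0.0423) and the aldolase Aldoc (0.57, adjusted p = 0.0489). edgeR called 1 of the 9 higher, and of 24 alternatives Tpi1 kept its call in 10 and Aldoc in 9. Of 21 genes of the opposing steps, the one-way enzymes of glycolysis, the pyruvate dehydrogenase system and their regulators, 4 rose and 0 fell in limma (19.0%, median -0.05, with 10.6% of all genes called), with 4 lower at an unadjusted p under 0.05. edgeR called 3 higher and 0 lower, and DESeq2 called 5 higher and 1 lower. Gckr, an inhibitory protein that acts at the entry to hepatic glycolysis, rose from 96.3 ± 8.03 to 135 ± 10.1 CPM (0.49, adjusted p = 0.00166) without overlap. The pyruvate dehydrogenase kinases Pdk1 (0.74, adjusted p = 0.00314) and Pdk2 (0.29, adjusted p = 0.0440), which switch the dehydrogenase off, and the dehydrogenase subunit Pdhb (0.35, adjusted p = 0.0361) rose, with the calls on Pdk2 and Pdhb kept in 7 and 15 of 24 alternatives. The kinase Pdk4 stood the other way, at -0.50 on the log2 scale, and did not pass (limma adjusted p = 0.102). Of the glycolytic enzymes in the list, Pklr came nearest to the threshold in limma (0.74, adjusted p = 0.0536).

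Among 33 tested regulators of gluconeogenic transcription, 3 rose and 4 fell (21.2%, median -0.10, where 10.6% of all genes were called and their median was 0.02). Cry1, a clock repressor that also dampens cAMP signalling, fell from 48.4 ± 6.19 to 19.4 ± 4.001 CPM (log2 fold change -1.31, adjusted p = 2.55e-05), and Klf9, a glucocorticoid-induced factor, fell from 81.0 ± 23.5 to 38.7 ± 7.66 CPM (-1.03, adjusted p = 0.00226). The small heterodimer partner Nr0b2, a repressor that binds HNF4alpha, fell (-1.32, adjusted p = 0.0142), and so did the forkhead factor Foxa3 (-0.36, adjusted p = 0.0415). Nr1d1, the clock repressor REV-ERBalpha, rose from 4.58 ± 2.14 to 14.5 ± 4.16 CPM (1.64, adjusted p = 0.00231), as did Nr2f2 (0.52, adjusted p = 0.0193) and Onecut1 (0.87, adjusted p = 0.0376). Repressors of the pathway therefore stood on both sides. Among the list's factors that carry the cAMP, insulin and glucocorticoid signals, Crtc2 (-0.10, adjusted p = 0.617), Foxo1 (-0.45, adjusted p = 0.239) and Nr3c1 (0.21, adjusted p = 0.166) did not pass.

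The partners and targets of the coactivators and of HNF4alpha showed few calls. Of 21 tested PGC-1 partners, 1 rose and 1 fell (9.52%, median 0.01). Ppard, a fatty acid receptor, fell from 24.0 ± 6.65 to 6.15 ± 1.35 CPM without overlap (-1.86, adjusted p = 2.08e-05), and Tfam, which maintains mitochondrial DNA, rose (0.29, adjusted p = 0.0382). Of 18 HNF4alpha targets, 1 rose and 1 fell (11.1%, median 0.00), namely the bile acid transporter Slc10a1 (0.31, adjusted p = 0.0390) and the apolipoprotein Apoa4 (-1.09, adjusted p = 0.0292). edgeR called 0 of the HNF4alpha targets higher, where limma had 3 at an unadjusted p under 0.05 and DESeq2 called 1. Of 24 alternatives the call was kept in 12 for Slc10a1, in 17 for Apoa4 and in 14 for Tfam. Both shares lay near the background of 10.6%.

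**Figure D5:**
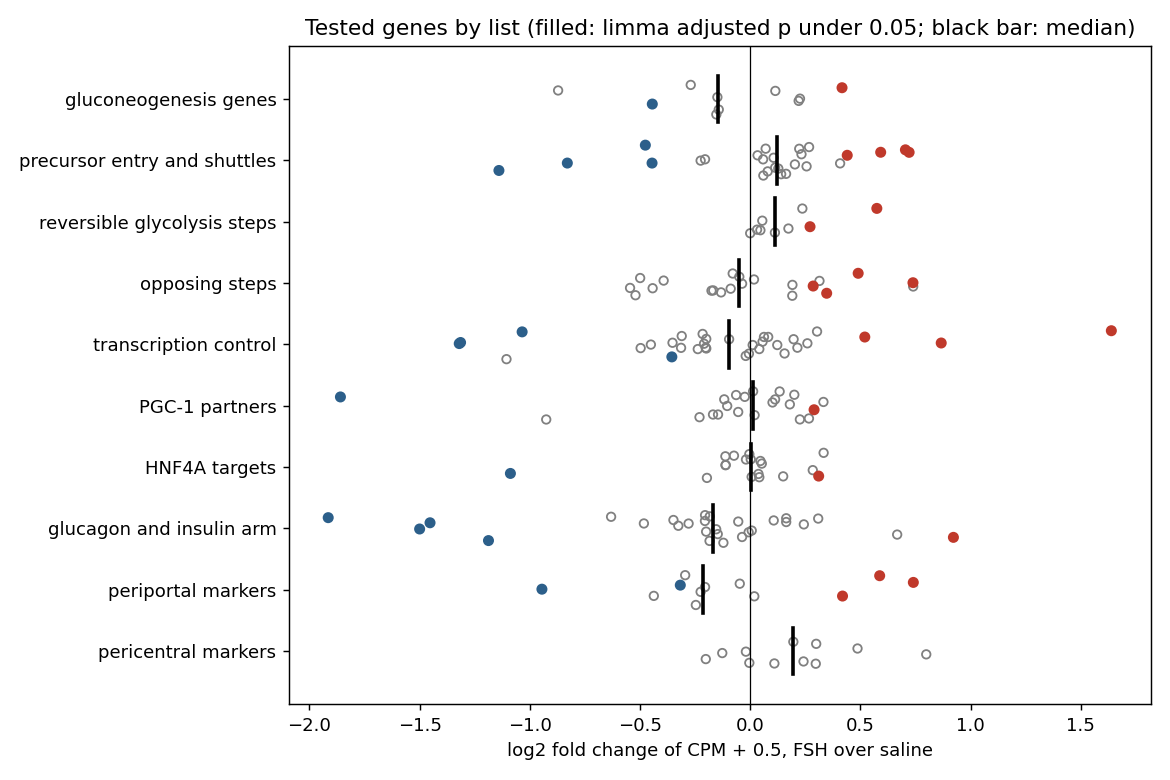
Each point is a tested gene, placed by its log2 fold change of CPM + 0.5 (FSH over saline, horizontal axis) in the row of its list, with filled points for a limma adjusted p under 0.05 and a black bar for the list's median. The 10 gluconeogenesis genes have their median at -0.15, and the far points at the left are Ppp1r3c (-1.91) and Ppard (-1.86) and at the right Nr1d1 (1.64).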

How the data were processed

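Liver RNA of 11 mice was sequenced as paired reads, and the authors deposited CPM values (reads of a gene per 1000000 reads of its library) in 1 table of 36788 Ensembl genes, with no filter. The submitters' processing notes name FastQC 0.11.2, Trim Galore 0.3.3, cutadapt, STAR and RSEM and the build mm10 (GRCm38). The annotation release and the use of strand are not given in the sources used here. All columns matched a sample label. Identifiers were matched to symbols through GENCODE M21 (35555 matched). Every value was a whole multiple of 1 read (100% within 0.01), which gave the depths in the report. RSEM gives estimated counts that need not be whole, and which output was scaled to CPM is not given in the sources used here, so the recovered reads cannot be told apart from rounded estimates. A count of 0 allows up to 3 reads, and such limits cover counting error only.

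The 12733 genes that averaged 0.5 CPM or more entered limma 3.58.1 as log2(CPM + 0.5) (R 4.3.3, eBayes with trend, Benjamini-Hochberg adjustment, 5 FSH against 6 saline, no covariates). On this scale the change of low genes is understated. Fold changes, SE and 95% intervals come from this fit. Single genes and ratios were tested with two-sided exact permutation tests over 462 splits (scipy 1.17.1), the ratios adjusted over 6, of which 1 is not reported here. The exons of the basic annotation gave lengths. edgeR 4.0.16, run on the recovered reads as an alternative, called 1435 genes. The other alternatives were other pseudocounts, filters, scalings and trends, array weights, a replicate block, voom, DESeq2 1.42.0, thinning to 10801891 reads and leaving out each liver, 24 in all. Functions were tested on simulated data. Nothing in the labels says more than that the livers are separate samples, so p-values measure the spread between these samples.

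The 10 genes and all lists were chosen with earlier results of these data known. Named genes were the 10, from each list up to 6 with adjusted p under 0.05 and the smallest p (or the 2 nearest), the ratio partners, and the 3 best correlated genes for Pck1, G6pc, Ppargc1a and Ppargc1b. The genes Crtc2, Foxo1, Nr3c1, Gcgr, Insr, Gpt2, Gpd2, Foxa3, Sox9 and Pdk4 were added after their values were seen. No list was tested as a set. The listed genes Prmt1, Rhbg and Tf were not analysed here. Promoter sequences are RefSeq's, from GRCm38.p6.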

Additional observations from a re-analysis of the deposited data

Results flagged for a closer look

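In each group of the 10 genes, the highest and lowest livers were compared with their nearest neighbour by Dixon's ratio at its 95% critical value. Of 20 groups tested, 2 held a liver past it, and chance alone flags about 1 in 20. Ppargc1b in saline replicate 4 was 6.70 CPM, where the other 5 saline livers ran from 2.19 to 3.61 CPM, and without that liver the log2 fold change was 0.02. Hnf4a in FSH replicate 6 was 445.2 CPM, where the other 4 FSH livers ran from 312.6 to 347.3 CPM, and without that liver the log2 fold change was -0.53 with a limma adjusted p of 0.0131.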

How the results depend on the processing

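The calls on Fbp1 and Hnf4a lay close to the threshold, and the count of called genes among the 10 moved with the settings. It was 0 without a filter on low values and without the trend, and 1 with TMM scaling, with median-of-ratios scaling and with edgeR. Leaving out 1 liver at a time gave 0 to 2. Fbp1 missed under these settings with adjusted p of 0.0935, 0.0604, 0.0525, 0.0535 and 0.0552, and Hnf4a missed under the first 2 with 0.0694 and 0.0589. Without a filter 20608 genes were tested. The directions of all 10 genes were the same under the 13 settings that kept every liver or used the block. Over all genes, leaving out 1 liver gave 803 (without FSH replicate 1) to 1659 (without FSH replicate 6) calls, and 197 to 273 past both thresholds.

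Leaving out a liver turned the log2 fold change of G6pc to 0.072 (without FSH replicate 1, range from -0.29), of Ppargc1b to 0.033 (without FSH replicate 3, range from -0.27) and 0.016 (without saline replicate 4), and of Foxa2 to -0.0021 (without FSH replicate 1, range up to 0.26). None of these genes passed in any setting. The difference in the ratio Pck1/Pck2 ran from -1.35 to -0.79, Pck1/Pklr from -1.90 to -1.25, Fbp1/Pfkl from 0.51 to 0.67 and Pcx/Pdha1 from -0.42 to -0.27, with 3, 7, 7 and 2 of 11 past the threshold. Ppargc1a/Ppargc1b ran from -0.27 to 0.034, the last without saline replicate 2. Of 39 genes called in the other lists, 22 kept their call in all 24 alternatives and 17 lost it in at least 1, with a highest adjusted p between 0.0504 and 0.155 and the direction kept in all. The 17 were Gpt2, Gpd2, Tpi1, Aldoc, Pdhb, Pdk2, Nr2f2, Foxa3, Onecut1, Tfam, Apoa4, Slc10a1, Pde4b, Ass1, Pigr, Aldh1b1 and Fgb.

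The replicate numbers are shared by the groups, and no source says what they mark. The deviations of same-numbered livers correlated between -0.0662 and 0.356, and in 1 of 5 numbers the FSH liver correlated best with its own number, so the numbers were not taken as pairs. With the replicate block, in which saline replicate 5 has no counterpart and drops out of the contrast, 1210 genes were called and 1 of the 10, Hnf4a, while Fbp1 had a log2 fold change of 0.33 and an adjusted p of 0.0689. Within equal numbers the ratio differences were -1.10 for Pck1/Pck2, -1.64 for Pck1/Pklr, 0.53 for Fbp1/Pfkl and -0.40 for Pcx/Pdha1, where the exact test of 5 pairs cannot pass. The log2 fold changes of the 10 genes under the block equalled those without saline replicate 5, such as 0.33 for Fbp1 and -0.95 for Pck1. Their adjusted p differed. Ppargc1b and Pck2 rest on as few as 25 and 45 reads in a liver, which limits what a difference in them can show.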

Other observations

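In the list of glucagon and insulin signalling, 1 of 28 genes rose and 4 fell (17.9%, where 6.19% of all genes rose and 4.41% fell). The median log2 fold change was -0.17, with 20 of 28 below 0, and that of all genes was 0.02. Ppp1r3c, which targets the phosphatase that activates glycogen synthase, fell from 114 ± 25.9 to 30.0 ± 7.39 CPM without overlap (log2 fold change -1.91, adjusted p = 1.38e-05). Trib3, an inhibitor of Akt, fell without overlap (-1.19, adjusted p = 0.00243). Igfbp1, a secreted protein that insulin represses (-1.499, adjusted p = 0.00930), and the insulin receptor substrate Irs2 (-1.45, adjusted p = 0.0168), which is also repressed by insulin, fell. The cAMP phosphodiesterase Pde4b rose (0.92, adjusted p = 0.0392). For the glucagon receptor Gcgr the log2 fold change was -0.15 (adjusted p = 0.399) and the insulin receptor Insr 0.16 (adjusted p = 0.222).

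Gluconeogenesis is concentrated in periportal hepatocytes, and markers of that zone moved in both directions. Of 12 periportal markers, 3 rose and 2 fell (41.7%, where 10.6% of all genes were called), with a median log2 fold change of -0.21 beside 0.02 for all genes. Cyp2f2 fell from 658 ± 30.9 to 344 ± 46.1 CPM (log2 fold change -0.94, adjusted p = 2.27e-05) and Pigr fell (-0.32, adjusted p = 0.0466). The glutaminase Gls2 (0.74, adjusted p = 0.00123), the urea cycle enzyme Ass1 (0.59, adjusted p = 0.0112) and Aldh1b1 (0.42, adjusted p = 0.0250) rose. Of 11 pericentral markers 0 passed in limma (median 0.20), while 5 were higher at an unadjusted p under 0.05, 0 in edgeR and 3 in DESeq2, the nearest being glutamine synthetase Glul (0.30, adjusted p = 0.0513) and Rgn (0.30, adjusted p = 0.0712). The summed periportal list ran from 8671 to 9285 CPM with FSH and from 7502 to 10346 CPM with saline, so its total lay within the saline range. Of 7 tested hepatocyte markers Fgb passed (-0.38, adjusted p = 0.0289), of 5 cholangiocyte markers Krt7 (0.69, adjusted p = 0.00731, at 1.86 CPM with FSH and 0.967 with saline) and of 6 endothelial markers Lyve1 (-0.63, adjusted p = 0.0121), while 0 of 7 stellate and 0 of 5 erythroid markers did, with 0 also at an unadjusted p under 0.05 and in edgeR and DESeq2. Among the other cholangiocyte markers Sox9 stood at -0.50 on the log2 scale (limma adjusted p = 0.0545), and DESeq2 called 1 marker of that list lower. The part of these markers in the values of the 10 genes was not tested.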
